A study of Mus musculus with 6 samples.

Results

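The genes described here encode the enzymes of glycolysis and gluconeogenesis in mouse white adipose tissue. They are the rows of the deposited expression table that carry the pathway code ko00010, without those that also carry the code of the tricarboxylic acid cycle (ko00020) or of fatty acid degradation (ko00071) and without Acss1 and Acss2. Of 21959 rows, 67 carried ko00010, 19 of these were left out, and 48 genes remained, which were grouped into 18 reactions. RNA was sequenced from 3 libraries of genotype WT (WT 10, WT 11 and WT 12) and 3 of genotype ++Oxtr (++Oxtr 7, ++Oxtr 8 and ++Oxtr 9), to compare gene expression in fat, which the design text calls gWAT, between ++Oxtr mice, named for the oxytocin receptor gene, and WT mice. The labels give no promoter, transgene or cell type behind ++Oxtr, and no age, sex or diet. Nothing in them says that the 3 libraries of a group came from separate animals, so p-values measure the spread between these libraries, which may be technical. Values are given in the order WT 10, 11, 12 and ++Oxtr 7, 8, 9.

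Glycolysis splits glucose in the cytosol. Hexokinase, glucose-6-phosphate isomerase, phosphofructokinase and aldolase prepare and cleave the hexose, and triosephosphate isomerase, glyceraldehyde-3-phosphate dehydrogenase, phosphoglycerate kinase, phosphoglycerate mutase, enolase and pyruvate kinase turn the trioses into pyruvate, which lactate dehydrogenase can reduce to lactate. Most of the reactions are served by several genes whose use differs between tissues, and gluconeogenesis runs the reversible ones backwards with its own phosphatases. In adipocytes the pathway supplies glycerol phosphate and acetyl units for triglyceride as well as ATP.

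Total counts per library lay between 14314517 and 19186696, and 3 counts, taken as the limit that a count of 0 allows, correspond to 0.156 to 0.21 CPM, counts scaled to the size of the library. All 6 adipocyte markers (Adipoq, Plin1, Cidec, Lipe, Fabp4 and Pparg) had reads in every library, with a summed level of 17655 to 21493 CPM in WT and 17620 to 20873 CPM in ++Oxtr. Oxtr itself was at 22.0, 61.4 and 45.2 CPM in WT and 90.7, 89.7 and 81.8 CPM in ++Oxtr, so that the groups did not overlap. The log2 fold change of Oxtr was 1.03 (SE 0.34, adjusted p = 0.469 by edgeR's quasi-likelihood test). The 8 markers of multiciliated epithelium summed to 87.0 CPM in ++Oxtr 8 and to between 7.37 and 25.2 CPM in the other libraries. The 6 macrophage markers summed to 799 to 1033 CPM in WT and 601 to 674 CPM in ++Oxtr, and 5 of the 6 were lower in ++Oxtr without overlap (7.61% of all genes were). The 5 neutrophil markers summed to 9.92 to 18.7 CPM in WT and 18.2 to 48.7 CPM in ++Oxtr, and 2 of the 5 were higher without overlap (7.45% of all genes were).

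Most glycolytic genes lay slightly to the higher side in ++Oxtr, with Gapdh as the main exception, but no gene passed the test. By edgeR's quasi-likelihood test with Benjamini-Hochberg adjustment, 0 of the 36 tested members and 0 of 13566 genes in all (0%) had an adjusted p of at most 0.05, and the smallest among the members was 0.344, for Pgk1. Of the 36, 24 had a log2 fold change above 0 and 12 below, with a median of 0.19 beside 0.0040 over all genes tested. At an unadjusted p of at most 0.05, 10 members were higher in ++Oxtr (27.8%, where 4.44% of all genes were) and 1 was lower (2.78%, where 4.47% were). In 10 members every ++Oxtr library lay above every WT library (7.45% of all genes) and in 2 every one lay below (7.61%). DESeq2, run as an alternative, placed 2 members higher at an adjusted p of at most 0.05 (5.56%, where 0.693% of all genes were higher) and 0 lower (0.708%). Without ++Oxtr 8, 6 members were higher and 2 lower at that unadjusted p, DESeq2 called 0, and the median was 0.058. DESeq2 also called 0 members without WT 12, 1 (Aldoa) without WT 10 or ++Oxtr 7, and 1 (Gapdh, lower) in addition to the same 2 without ++Oxtr 9. The counts of members with 1 library left out were added after the data were seen.

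The members were not all on one level or in one direction along the pathway. Over the 8 tested genes of the hexokinase, isomerase and phosphofructokinase reactions the median log2 fold change was -0.12, with 3 genes above 0 and 5 below. Over the 16 tested genes from aldolase to lactate dehydrogenase it was 0.41, with 15 above 0 and 1, Gapdh, below. The difference between these sections was not tested. The plot of fold changes in pathway order shows the change in sign.

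**Figure D1:**
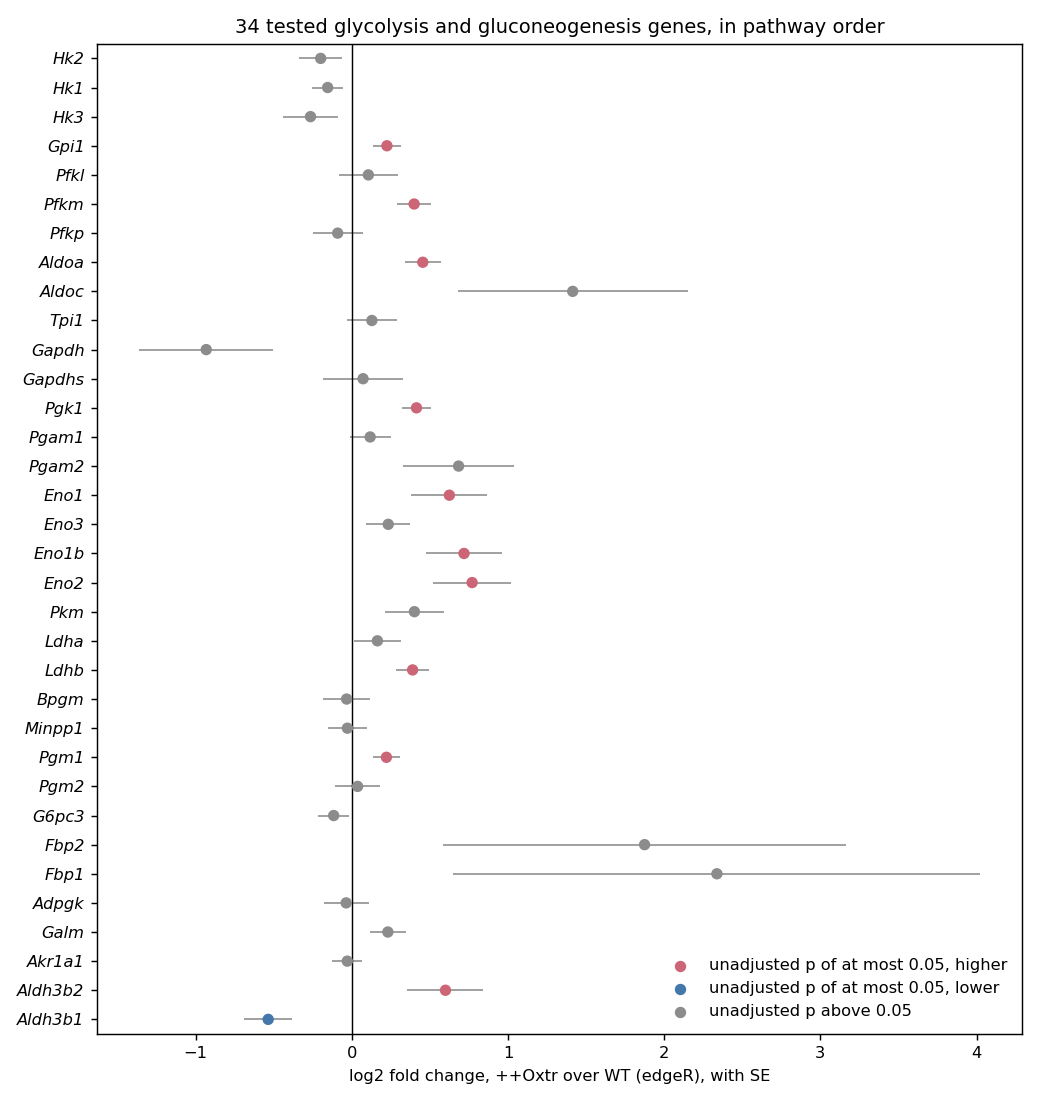
The log2 fold change of ++Oxtr over WT by edgeR, with its standard error, for 34 of the tested members in pathway order; colour marks an unadjusted p of at most 0.05. The hexokinases drawn lie left of 0, the genes from aldolase to lactate dehydrogenase lie right of it except Gapdh, and the widest bars belong to the sparsely counted Fbp1 and Fbp2.

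Pgk1 and Aldoa lay on the higher side and Gapdh, which acts between them, on the lower side with overlapping groups. Pgk1 (ENSMUSG00000062070, chromosome X) encodes phosphoglycerate kinase, which makes the first ATP of the triose section. It was at 132, 152 and 135 CPM in WT and 190, 192 and 176 CPM in ++Oxtr. All 3 ++Oxtr libraries lay above all 3 WT libraries, with a log2 fold change of 0.41 (SE 0.09, 1.33-fold). Its edgeR adjusted p was 0.344 and its DESeq2 adjusted p 0.0127. Aldoa (ENSMUSG00000030695, chromosome 7), the aldolase that cleaves fructose 1,6-bisphosphate, had 812, 960 and 849 CPM in WT and 1123, 1287 and 1181 CPM in ++Oxtr. The groups again did not overlap, and the log2 fold change was 0.45 (SE 0.12, 1.37-fold, edgeR adjusted p = 0.368, DESeq2 adjusted p = 0.00686).

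Gapdh (ENSMUSG00000057666, chromosome 6) encodes the dehydrogenase that oxidises glyceraldehyde 3-phosphate between these steps, and is often used as a reference gene. It had 958, 1209 and 1027 counts in WT and 434, 341 and 942 counts in ++Oxtr, which are 56.5, 83.9 and 67.3 CPM and 23.1, 22.5 and 63.6 CPM. ++Oxtr 7 and ++Oxtr 8 lay far below every WT library, whereas ++Oxtr 9 lay within the WT range, so the groups overlapped. The log2 fold change was -0.93 (SE 0.43, edgeR unadjusted p = 0.0693, adjusted p = 0.584), and the adjusted p by DESeq2 was 0.272. Without ++Oxtr 9 the log2 fold change was -1.60 (edgeR adjusted p = 0.14, DESeq2 adjusted p = 1.03e-11). The DESeq2 refit was added after the data were seen and drops the ++Oxtr library that lay among WT. Its p therefore does not measure the spread of all 3 ++Oxtr libraries. Without ++Oxtr 7 the log2 fold change was -0.69 (edgeR adjusted p = 0.645) and without ++Oxtr 8 -0.68 (edgeR adjusted p = 0.804). Its mean level was 12.8 FPKM (counts per gene length and library size), beside 355 for Aldoa, 123 for Tpi1 and 72.4 for Pgk1. Of its 100-base stretches 73.9% also occur in transcripts of other genes, and 67.0% of those of Pgk1. The counts of both genes are therefore uncertain, as described below.

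A ratio of genes within a library does not depend on how libraries are scaled, and it shows unequal change only. The log2 ratio of Gapdh to Pgk1 came to -1.23, -0.86 and -1.0 in WT and -3.04, -3.10 and -1.47 in ++Oxtr, a difference of the means of -1.51 (SD 0.19 in WT and 0.93 in ++Oxtr, n = 3 each). For Gapdh to Aldoa it came to -3.85, -3.52 and -3.66 in WT and -5.61, -5.84 and -4.22 in ++Oxtr, a difference of -1.55. In both ratios every ++Oxtr library lay below every WT library, ++Oxtr 9 the least. Aldoa and Pgk1 kept nearly the same ratio to each other, with a log2 of 2.64 ± 0.021 in WT and 2.68 ± 0.11 in ++Oxtr (SD, n = 3 each). These genes were picked with their directions known, so the ratios carry no test. The uncertainty of the Gapdh and Pgk1 counts carries over into them.

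**Figure D2:**
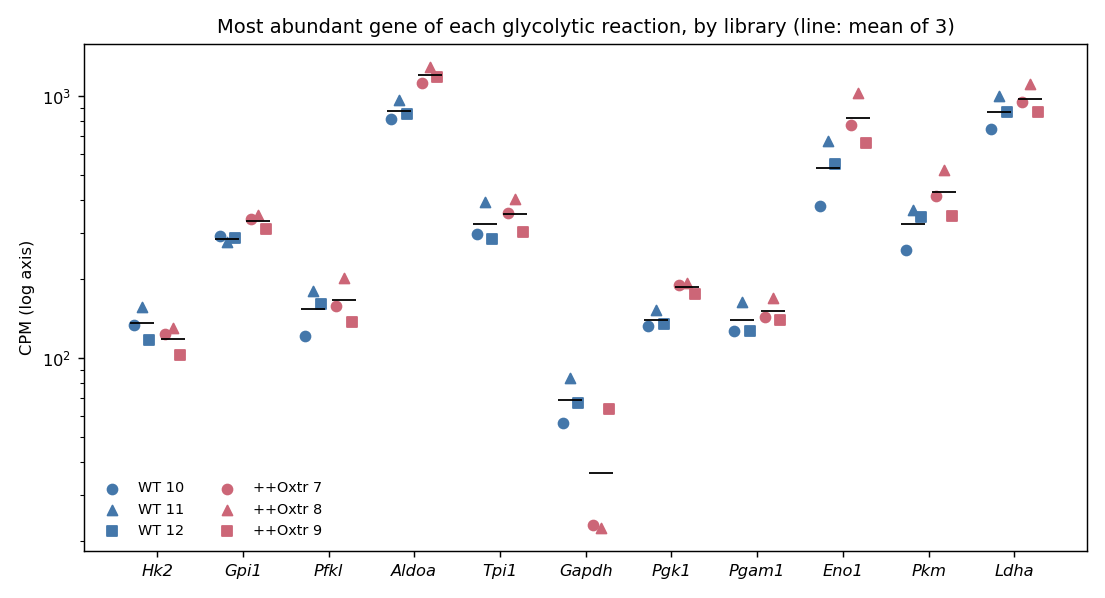
CPM on a log axis of the most abundant gene of each reaction from hexokinase to lactate dehydrogenase, one symbol per library, with a line at the mean of 3. Pgk1 and Aldoa separate the genotypes upwards, and for Gapdh ++Oxtr 7 and ++Oxtr 8 lie near 23 CPM while ++Oxtr 9 lies at 63.6 CPM among the WT libraries.

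The bases before the start of Pgk1, Aldoa and Gapdh are shown as a description. Any link between them and the directions of these genes was not tested. Each run is the 250 bases before a RefSeq start site on GRCm38.p6, given on the gene's strand from 5′ to 3′. Capitals mark ACGTG, a form of the core letters of the hypoxia response element, on either strand. They also mark CACGTG, the E-box, each copy of which also holds ACGTG on both strands. The other form of the core, GCGTG, was neither marked nor counted, and the Gapdh window holds it. Ldha is added as the member with the most copies. The Pgk1 window is chrX:106186850-106187099 on the plus strand, that of Aldoa is chr7:126799255-126799504 on the minus strand, that of Gapdh is chr6:125165774-125166023 on the minus strand, and that of Ldha is chr7:46845554-46845803 on the plus strand. None of these 4 windows overlapped an annotated exon.
Pgk1: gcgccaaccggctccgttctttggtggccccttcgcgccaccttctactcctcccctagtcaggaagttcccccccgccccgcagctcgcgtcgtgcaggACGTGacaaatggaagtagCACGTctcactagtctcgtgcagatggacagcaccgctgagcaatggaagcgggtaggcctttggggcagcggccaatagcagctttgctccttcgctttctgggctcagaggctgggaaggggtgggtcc
Aldoa: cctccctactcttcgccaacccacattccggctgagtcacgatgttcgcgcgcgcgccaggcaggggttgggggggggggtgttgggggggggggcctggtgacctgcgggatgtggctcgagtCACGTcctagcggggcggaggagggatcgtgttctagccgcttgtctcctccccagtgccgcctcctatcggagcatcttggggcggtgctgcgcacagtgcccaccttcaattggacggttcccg
Gapdh: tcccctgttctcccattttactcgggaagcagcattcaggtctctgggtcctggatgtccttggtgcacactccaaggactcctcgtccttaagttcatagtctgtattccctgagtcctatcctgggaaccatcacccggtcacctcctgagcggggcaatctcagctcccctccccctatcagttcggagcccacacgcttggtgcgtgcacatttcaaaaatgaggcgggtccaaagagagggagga
Ldha: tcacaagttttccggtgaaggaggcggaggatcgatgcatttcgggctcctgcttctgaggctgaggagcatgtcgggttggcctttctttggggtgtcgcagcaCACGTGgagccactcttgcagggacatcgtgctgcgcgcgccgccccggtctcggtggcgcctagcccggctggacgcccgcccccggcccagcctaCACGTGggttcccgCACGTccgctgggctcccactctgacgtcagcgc
The Pgk1 window held ACGTG 2 times, the Aldoa window shown 1 time and that of Gapdh 0 times. The Ldha window shown held it 5 times and CACGTG 2 times, each copy of CACGTG counting as 2 of ACGTG. Of the windows not shown, those of Aldoa held ACGTG 0 times and 1 time, and that of Ldha 0 times. Of the 41 members found in the promoter table, 14 (34.1%) had ACGTG in at least 1 of their windows, where 18.5% of the 27025 genes of the table did. CACGTG stood in 4 of the 41 (9.76%), beside 6.86% of all genes. Genes with several start sites have several windows, and a match is a description of the letters, not a bound site. Among other members, Eno1 (log2 fold change 0.62) held ACGTG 0 times in each of its windows. Hk2 (-0.20) held it 2 times at separate places. G6pc3 (-0.12) held it 4 times, all within 2 copies of CACGTG. Ldha itself had a log2 fold change of 0.16.

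Among the hexokinase genes, Hk2, typical of insulin-sensitive tissues, held most of the RNA by FPKM. Levels per gene length (FPKM, which divides counts by the length of the gene and the size of the library) allow genes to be compared with each other, but rest on the lengths in the deposited table. These are 13401 bases for Pfkp, 8532 for Hk1, 4133 for Gapdh and 1610 for Gapdhs. The principal GENCODE transcripts have 4145, 3851, 1420 and 1368, so the shares given below depend on that choice. Hk2 held 74.4%, 77.1% and 69.2% of the summed hexokinase FPKM in WT and 73.8%, 75.6% and 71.1% in ++Oxtr, so the means differed by -0.07 percentage points, less than the spread. Its own level was 134, 157 and 117 CPM in WT and 123, 130 and 102 CPM in ++Oxtr, overlapping groups with a log2 fold change of -0.20 (SE 0.14). Hk1, the broadly expressed hexokinase, was at 45.7, 46.2 and 48.8 CPM in WT and 46.6, 38.6 and 41.1 CPM in ++Oxtr, a log2 fold change of -0.15 (SE 0.10). Hk3, a hexokinase of myeloid cells, had a mean of 2.12 FPKM and lay lower in ++Oxtr without overlap, at 7.78, 7.77 and 9.90 CPM in WT and 6.59, 6.98 and 7.63 CPM in ++Oxtr. Its log2 fold change was -0.26 (SE 0.17, edgeR adjusted p = 0.682), beside the lower macrophage markers and the neutrophil markers on the higher side given above, whose part in it was not tested. In bulk tissue, fewer cells of a type and less RNA per cell cannot be told apart.

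Adpgk, which phosphorylates glucose with ADP, was at 24.4, 33.4 and 29.8 CPM in WT and 26.7, 32.1 and 26.6 CPM in ++Oxtr, with overlapping groups. The last step of glucose release belongs to glucose-6-phosphatase, of which this tissue expressed the ubiquitous form G6pc3 at 31.6, 30.3 and 27.6 CPM in WT and 27.6, 28.7 and 26.3 CPM in ++Oxtr (log2 fold change -0.12, SE 0.10). The liver form G6pc had a mean of 0.17 FPKM and the islet form G6pc2 had 0 reads in every library.

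Gpi1, which turns glucose 6-phosphate into fructose 6-phosphate, had 291, 276 and 286 CPM in WT and 339, 350 and 309 CPM in ++Oxtr. The groups did not overlap, although the shift was small, at a log2 fold change of 0.23 (SE 0.09, edgeR adjusted p = 0.517). Pgm1, the phosphoglucomutase that links glucose 6-phosphate to glycogen, also lay higher in ++Oxtr without overlap, at 221, 255 and 238 CPM in WT and 273, 277 and 282 CPM in ++Oxtr (log2 fold change 0.22, SE 0.09). It held 90.6 ± 1.33% of phosphoglucomutase FPKM in WT and 91.7 ± 1.09% in ++Oxtr (SD, n = 3 each), the rest being Pgm2 at a mean of 8.5 FPKM.

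Phosphofructokinase, which commits sugar to glycolysis, drew on all 3 of its genes. Pfkl, the liver form, held 58.9 ± 2.36% of the FPKM in WT and 57.5 ± 3.38% in ++Oxtr (SD, n = 3 each). Its level was 121, 180 and 161 CPM in WT and 158, 202 and 137 CPM in ++Oxtr, fully overlapping. The muscle form Pfkm was at 25.1, 28 and 29 CPM in WT and 32.6, 37.5 and 38.1 CPM in ++Oxtr. All ++Oxtr libraries lay above all WT libraries for Pfkm, with a log2 fold change of 0.40 (SE 0.11, edgeR adjusted p = 0.387). The platelet form Pfkp had 86.4, 116 and 110 CPM in WT and 107, 108 and 78.5 CPM in ++Oxtr, a log2 fold change of -0.09. Pfkp had more counts than Pfkm and, with its long deposited length, fewer FPKM. As a share of FPKM, Pfkm held 23.4%, 19% and 21.2% in WT and 23.5%, 22.7% and 30.2% in ++Oxtr, and Pfkp 20.1%, 19.7% and 20% against 19.3%, 16.2% and 15.5%. Pfkp lay lower in every ++Oxtr library as a share, and Pfkm was highest in ++Oxtr 9. The 8 skeletal muscle markers summed to 9.90 to 23.5 CPM in WT and 3.04 to 10.1 CPM in ++Oxtr. Tnnc2 and Myh4 were at 0. Acta1 held the largest part of the sum, with means of 15.8 CPM in WT and 4.88 CPM in ++Oxtr. The means of Myh1 were 1.22 and 0.673 CPM, those of Mylpf 0.766 and 0.831 CPM and those of Tnnt3 0.574 and 0.559 CPM. The lower sum therefore mainly reflects Acta1, and the part of muscle in the level of Pfkm was not tested.

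Among aldolases Aldoa accounted for 99.8 ± 0.17% of the FPKM in WT and 99.3 ± 0.91% in ++Oxtr (SD, n = 3 each). Tpi1, which interconverts the trioses, was at 296, 394 and 284 CPM in WT and 357, 404 and 303 CPM in ++Oxtr, overlapping groups with a log2 fold change of 0.13 (SE 0.16). In the glyceraldehyde-3-phosphate dehydrogenase reaction, Gapdh held 85.8%, 89.9% and 89.5% of the FPKM in WT and 68.2%, 73.5% and 87.4% in ++Oxtr. The rest was Gapdhs, known as the form of spermatogenic cells, which stayed at 3.66, 3.68 and 3.08 CPM in WT and 4.2, 3.16 and 3.58 CPM in ++Oxtr. The germ cell markers Prm2 and Tnp1 were at 0, and the 4 markers of that list summed to at most 0.329 CPM. Summed over both genes, the log2 fold change came to -0.86 (SE 0.39, edgeR adjusted p = 0.585).

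**Figure D3:**
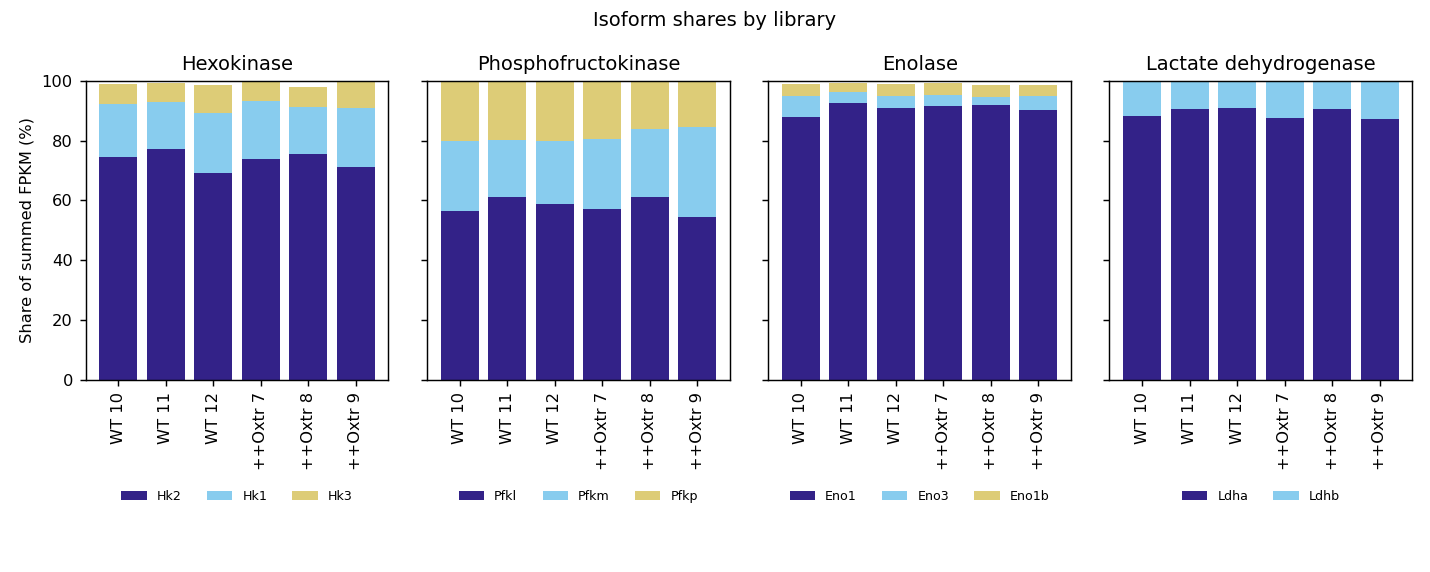
The share in percent of each gene in the summed FPKM of its reaction, one bar per library, for hexokinase, phosphofructokinase, enolase and lactate dehydrogenase, drawn for genes with a mean share of at least 2%. The leading gene is the same in all 6 libraries (Hk2, Pfkl, Eno1 and Ldha), and Hk2 stays between 69.2% and 77.1%.

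Enolase, which makes phosphoenolpyruvate, lay to the higher side with all 4 of its tested genes. Eno1, its most abundant gene, was at 379, 669 and 547 CPM in WT and 770, 1028 and 661 CPM in ++Oxtr. ++Oxtr 9 lay just under WT 11, so the groups overlapped, and the log2 fold change was 0.62 (SE 0.24, edgeR adjusted p = 0.513). Eno1b, a close copy of Eno1, had 5.96, 7.77 and 8.32 CPM in WT and 11.2, 15.9 and 9.11 CPM in ++Oxtr (log2 fold change 0.72, SE 0.24). Eno2, the neuronal form, had 3.66, 2.98 and 4.72 CPM in WT and 5.47, 6.72 and 7.22 CPM in ++Oxtr (0.77, SE 0.25). Neither of these overlapped between the groups, nor did the muscle form Eno3, at 8.19 to 9.73 CPM in WT and 10 to 10.9 CPM in ++Oxtr. The share of Eno1 was 90.5 ± 2.35% in WT and 91.3 ± 0.77% in ++Oxtr (SD, n = 3 each).

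Around enolase the levels were closer. Pgam1, the phosphoglycerate mutase of most tissues, was at 126, 164 and 127 CPM in WT and 143, 169 and 140 CPM in ++Oxtr (log2 fold change 0.12, SE 0.13), and held 97.5% and 96.4% of the FPKM. The muscle form Pgam2 had 1.18, 1.25 and 1.97 CPM in WT and 2.34, 2.5 and 2.23 CPM in ++Oxtr, higher without overlap, with a log2 fold change of 0.68 (SE 0.35, edgeR adjusted p = 0.624). Bpgm, which makes 2,3-bisphosphoglycerate, had 32.1, 26.2 and 37.7 CPM in WT and 28.1, 34.0 and 31.8 CPM in ++Oxtr, overlapping throughout. Minpp1, an inositol polyphosphate phosphatase that also acts on bisphosphoglycerate, had 21.5, 22.5 and 26.1 CPM in WT and 22.7, 20.8 and 25.2 CPM in ++Oxtr.

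Pkm, the pyruvate kinase of muscle and most other tissues, was at 259, 368 and 345 CPM in WT and 415, 521 and 346 CPM in ++Oxtr. ++Oxtr 7 and ++Oxtr 8 exceeded all WT libraries and ++Oxtr 9 did not, and the log2 fold change was 0.40 (SE 0.19, edgeR adjusted p = 0.584). Its counts join both of its splice forms, which a table of genes does not separate. Ldha, the lactate dehydrogenase subunit of glycolytic tissue, had 744, 996 and 867 CPM in WT and 943, 1111 and 867 CPM in ++Oxtr (0.16, SE 0.15). The heart subunit Ldhb was at 46.5, 48.3 and 40.0 CPM in WT and 62.5, 53.8 and 60.1 CPM in ++Oxtr. Every ++Oxtr library lay above WT for Ldhb, at a log2 fold change of 0.39 (SE 0.10, edgeR adjusted p = 0.381). Ldha still held 90.1 ± 1.49% of the FPKM of the pair in WT and 88.6 ± 1.89% in ++Oxtr (SD, n = 3 each).

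In the 12 reactions with several isoform genes the gene with the most FPKM was the same in all 6 libraries. The share of the leading gene was computed for 11 reactions, of which the aldehyde and bisphosphoglycerate groups hold different enzymes rather than isoforms. On FPKM the largest difference of means was that of Gapdh, at -12.0 percentage points (88.4 ± 2.28% against 76.3 ± 9.93%, SD, n = 3 each, exact 2-sided permutation p = 0.2). On summed counts it was -6.14 percentage points, less than that of Fbp2 at -10.3, and on FPKM with 1 library left out it lay between -17.6 (without ++Oxtr 9) and -7.96 (without ++Oxtr 7). Adjusted over the 11 shares, the exact permutation p-values lay between 0.825 and 1. With 3 libraries against 3 the test cannot go below 0.1, so no share could pass.

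Among the enzymes at the edge of the pathway, a pair of related aldehyde dehydrogenases lay on opposite sides. Aldh3b1, an aldehyde dehydrogenase, was at 13, 14.1 and 14.1 CPM in WT and 10.1, 10.4 and 7.90 CPM in ++Oxtr, and was the only member lower at an unadjusted p of at most 0.05 in the fit of all 6 libraries (log2 fold change -0.54, SE 0.15, edgeR adjusted p = 0.402). Its paralogue Aldh3b2 was at 20.9, 34.9 and 25.8 CPM in WT and 31.6, 39.3 and 52.8 CPM in ++Oxtr, overlapping groups with a log2 fold change of 0.60 (SE 0.24). Akr1a1, an aldehyde reductase and one of the 9 members at 50 FPKM or more, had 372, 376 and 339 CPM in WT and 376, 358 and 331 CPM in ++Oxtr. Galm, which converts the ring forms of glucose, had 45.4, 40.6 and 37.3 CPM in WT and 53.2, 48.6 and 42.8 CPM in ++Oxtr (0.23, SE 0.12).

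Of the 48 members, 34 reached a mean of 1 FPKM and 14 did not. Of these 14, 5 had 0 reads in every library: G6pc2, the testis forms Pgk2, Ldhc and Ldhal6b, and Aldoart2. Those with reads include Hkdc1, G6pc, Aldoc, Aldoart1, Eno4, Pklr, Aldh3a1 and Aldh3b3. Filtering on low counts kept 36 members for the test and left out 12, all of them under a mean of 1 FPKM, while Aldoc was kept.

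One library stood apart in the sparse members. Fbp1, a fructose bisphosphatase of gluconeogenic tissue, was at 0.177, 0 and 1.51 CPM in WT and 0.0531, 7.58 and 1.01 CPM in ++Oxtr, and the muscle form Fbp2 at 0.295, 0.208 and 1.84 CPM and 0.266, 7.18 and 1.22 CPM. In both ++Oxtr 8 was highest and WT 12 next. Pklr, the pyruvate kinase of liver and red cells, reached 4.81 CPM in ++Oxtr 8 and at most 0.472 CPM elsewhere.

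Of 13 members with reads and a mean under 1.5 FPKM, 8 had their highest level in ++Oxtr 8. A group of 7 chosen after their values were seen (Aldoc, Fbp1, Fbp2, Pklr, Eno4, Hkdc1 and G6pc) summed to 1.47, 0.971 and 5.05 CPM in WT and 1.01, 29.4 and 5.20 CPM in ++Oxtr. The 8 multiciliated epithelium markers followed the same libraries, with 7.37, 8.46 and 20.1 CPM in WT and 7.44, 87.0 and 25.2 CPM in ++Oxtr, and all 8 were highest in ++Oxtr 8. Their part in the levels of these genes was not tested. Without ++Oxtr 8 the log2 fold change of Fbp1 went from 2.34 to -0.12 and that of Fbp2 from 1.87 to -0.10.

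**Figure D4:**
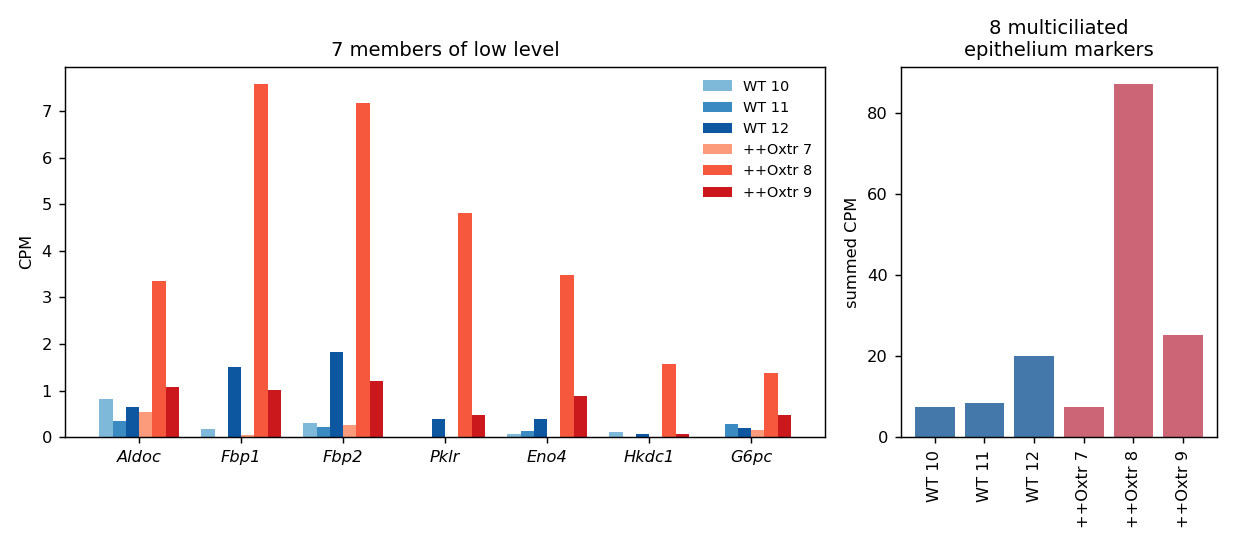
CPM of 7 sparsely counted members (left) and the summed CPM of 8 multiciliated epithelium markers (right) in each of the 6 libraries. ++Oxtr 8 has the highest bar in both panels, at 7.58 CPM for Fbp1 and 87.0 CPM for the summed markers.

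The same library also led among the well-counted members. The median deviation of the 36 tested members from their own mean log2 level came to -0.19, -0.0042 and -0.079 in WT and 0.050, 0.21 and 0.015 in ++Oxtr. WT 10 was lowest, ++Oxtr 8 highest, and every ++Oxtr library lay above every WT library, WT 11 and ++Oxtr 9 being close. Members took up 0.440%, 0.557% and 0.503% of all counts in WT and 0.564%, 0.654% and 0.531% in ++Oxtr. In these shares ++Oxtr 9 lay below WT 11, so the groups overlapped.

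Some members share long stretches of sequence with copies elsewhere, which bears on how far their counts can be trusted. In the GENCODE M21 transcripts, 73.9% of the 100-base stretches of the principal Gapdh transcript also occurred in transcripts of 86 other genes, 82 of them pseudogenes. The share was 67.0% for Pgk1, 59.0% for Eno1, 74.7% for Eno1b and 39.7% for Pgam1. It was 21.5% for Minpp1, 16.0% for Pfkp, 14% for Aldh3b2 and 13.2% for Pgm1. It was 9.82% for Pkm and 8.80% for Ldhb, 1.26% for Ldha, 0.796% for Tpi1, and 0 for Aldoa, Hk2 and Pfkl. For Ldhal6b, with 0 reads, all stretches occurred in a transcript of another gene, so its 0 need not mean absence. The counts of Gapdh, Pgk1, Eno1, Eno1b and Pgam1, and to a lesser degree those of the other members that share stretches, are therefore uncertain, since the read length and the treatment of reads that match several places were not given in the sources used here. The coding Gapdh copy Gm3839 had 1 to 5 counts per library and Gm10358 had 0, and the second row named Aldoa had 3 to 11.

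**Figure D5:**
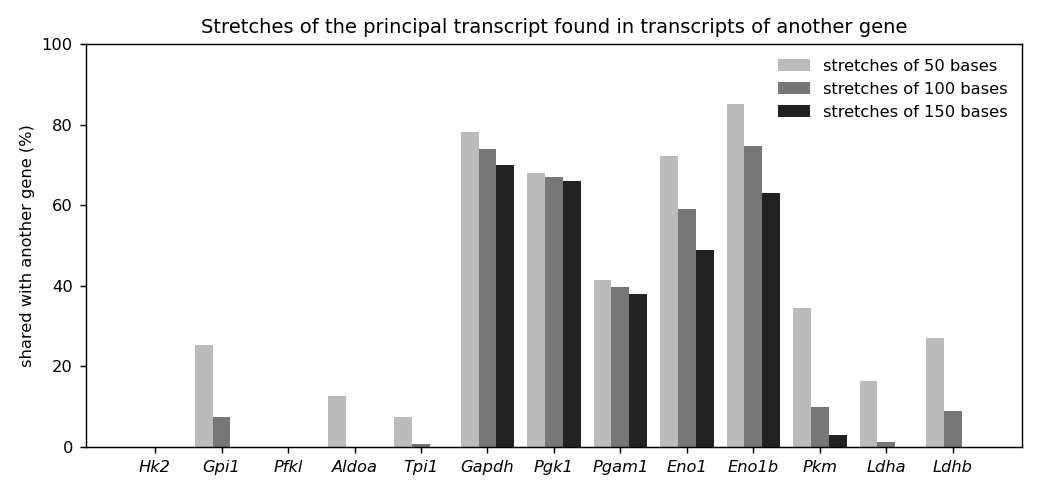
The percent of stretches of 50, 100 and 150 bases of the principal transcript that also occur in a transcript of another gene, for 13 members. Gapdh, Pgk1, Eno1 and Eno1b share most of their stretches of 100 bases, Aldoa, Hk2 and Pfkl none.

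Around the pathway, the lists of other genes also held none that passed the edgeR test. Among glucose carriers and Txnip, 0 of 6 tested genes were higher and 2 lower (33.3%) at an unadjusted p of at most 0.05, where 4.44% and 4.47% of all genes were. The neuronal-type carrier Slc2a3 was at 32.7, 35.2 and 47.5 CPM in WT and 23.8, 16.7 and 31.9 CPM in ++Oxtr, and Slc2a12 at 7.84, 5.27 and 5.11 CPM and 2.66, 2.70 and 1.69 CPM, a log2 fold change of -1.37 (SE 0.31, edgeR adjusted p = 0.347). Neither overlapped, and Slc2a12 was the one gene of this list called by DESeq2 (adjusted p = 0.0127). Slc2a1, the widely expressed carrier, lay within overlapping groups (0.11, SE 0.15), and Slc5a1 was too sparse to test. Slc2a4 had the most FPKM of these carriers, a mean of 63.9 beside 4.34 for Slc2a3 and 1.0 for Slc2a12. It was at 170, 222 and 196 CPM in WT and 218, 299 and 230 CPM in ++Oxtr, with overlapping groups (0.34, SE 0.15, edgeR adjusted p = 0.567). In all, 4 of the 6 tested genes had a log2 fold change above 0 and 2 below, with a median of 0.12. Of the 10 tested regulators, 0 were higher and 1 (10%, beside the same 4.47%) lower at that p, Hif1a, the oxygen-regulated factor, at 97.9, 114 and 106 CPM in WT and 85.4, 78.4 and 87.1 CPM in ++Oxtr (-0.34, SE 0.09, edgeR adjusted p = 0.378). Pfkfb3, which makes the phosphofructokinase activator fructose 2,6-bisphosphate, was at 984, 1277 and 884 CPM in WT and 970, 798 and 394 CPM in ++Oxtr, with ++Oxtr 9 far below the rest.

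For the exit of pyruvate, 3 of 12 genes were higher and 1 lower at an unadjusted p of at most 0.05 (25% and 8.33%, where 4.44% and 4.47% of all genes were). Pdk1, a kinase that switches off pyruvate dehydrogenase, was at 58.7, 89.6 and 94.3 CPM in WT and 117, 144 and 145 CPM in ++Oxtr. Its groups did not overlap, with a log2 fold change of 0.75 (SE 0.19, edgeR adjusted p = 0.37, DESeq2 adjusted p = 0.0208). The others were Mpc2, a subunit of the mitochondrial pyruvate carrier (0.51, SE 0.15), and the phosphatases Pdp2 (0.50, SE 0.19) and Pdp1 (-0.43, SE 0.15). Mpc1, the other subunit, lay at 0.40 (SE 0.22). Of 8 gluconeogenesis and glycerol phosphate genes that the rule leaves out, 3 were higher (37.5%, beside the same 4.44%) and 0 lower at that p, and DESeq2 called the same 3 (0.693% of all genes were higher). Gpd2, the mitochondrial glycerol phosphate dehydrogenase, was at 71.0, 106 and 150 CPM in WT and 219, 303 and 264 CPM in ++Oxtr (1.27, SE 0.27, edgeR adjusted p = 0.347, DESeq2 adjusted p = 0.000287). Pcx, which carboxylates pyruvate, was at 1825, 2580 and 1923 CPM in WT and 2783, 3321 and 3323 CPM in ++Oxtr (0.58, SE 0.17), and Mdh1, the cytosolic malate dehydrogenase, at 522, 569 and 478 CPM and 753, 671 and 852 CPM (0.54, SE 0.13). All 3 separated the groups without overlap.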

How the data were processed

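RNA-seq libraries were made from total RNA of white adipose tissue with a NEBNext Ultra II kit, per the labels' protocols, and the genome build was mm10, per the submitters' processing notes. The aligner, counter, annotation and strand setting were not given in the sources used here. The authors deposited raw counts per gene and FPKM. The deposited FPKM equal counts divided by gene length and library total, to a largest relative error of 4.3e-14. In the table, 51 of 21959 rows had no symbol.

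Computed here: CPM scaled by TMM, and edgeR 4.0.16 (R 4.3.3) quasi-likelihood F-tests (robust) across the 13566 genes kept by filterByExpr, with Benjamini-Hochberg adjustment and a threshold of 0.05. The test was checked on simulated counts of well-counted genes. The changes planted there were larger than those of most members, so the check does not cover changes as small as theirs. Alternatives used DESeq2 1.42.0 and limma 3.58.1. Exact 2-sided permutation tests of isoform shares used all 20 assignments of the libraries. Library pairs of a group differed by 18.2 to 50.7 times counting noise (chi-square per degree of freedom), so none was the same library deposited again; separate libraries of 1 animal could differ as much. Limits from a count of 0 cover counting error only.

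The members and lists were chosen with earlier results of these data known. Named with every library's value were Gapdh, Pgk1, Aldoa, the leading gene of each reaction, a second gene with at least 10% of its FPKM, and members with an unadjusted p of at most 0.05. From the other lists, genes at that p and the first gene were named, and Slc2a4 for its level. Some members enter the counts but are not reported here by name. Promoters came from RefSeq (GRCm38.p6), matched by gene identifier, and transcripts from GENCODE M21.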

Additional observations from a re-analysis of the deposited data

How the results depend on the processing

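No paired analysis was possible because no replicate number occurs in both genotypes. The count of members past the adjusted threshold stayed at 0 in both directions under other normalizations, filters, voom, FPKM, a threshold of 0.1 and with any 1 library left out. It was 2 higher under DESeq2, and 10 higher and 1 lower at an unadjusted p of 0.05. Under DESeq2 the sums of the aldolase reaction (0.46) and of phosphoglycerate kinase (0.41) also passed. Chosen after seeing the data, leaving out 1 library at a time gave 6 to 10 higher and 1 to 2 lower members at the unadjusted p, and 0 to 2 higher and 0 to 1 lower by DESeq2. The member median log2 fold change ranged from 0.058 (without ++Oxtr 8) to 0.27.

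Signs turned under these settings, and the cause was not tested. Under voom Akr1a1 was at 0.018, and on summed counts the Pfkl share differed by 1.34 percentage points in place of -1.34. With 1 library left out, log2 fold changes ranged from -0.15 to 0.077 for Adpgk, -0.073 to 0.018 for Akr1a1, -0.15 to 0.11 for Bpgm, -0.10 to 0.063 for Minpp1, -0.045 to 0.16 for Gapdhs, -0.060 to 0.24 for Pfkl, -0.10 to 3.47 for Fbp2 and -0.12 to 4.84 for Fbp1. Share differences ranged from -0.80 to 0.029 percentage points for Aldoa, -2.11 to 1.36 for Bpgm, -0.46 to 1.88 for Eno1, -19.5 to 3.06 for Fbp2, -2.26 to 1.72 for Hk2 and -3.13 to 0.23 for Pfkl. Reaction sums ranged from -0.15 to 0.077 for the Adpgk reaction, -0.026 to 0.059 for the aldehyde group, -0.11 to 0.088 for bisphosphoglycerate, -0.098 to 4.04 for fructose bisphosphatase and -0.057 to 0.18 for phosphofructokinase. At these depths, members near the limit of 3 counts (0.156 to 0.21 CPM) cannot be compared.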

Other observations

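Ldhd, a mitochondrial dehydrogenase of D-lactate that the pathway code does not include, was chosen after its values were seen. It was at 23.5, 33.6 and 24.1 CPM in WT and 39.7, 62.4 and 62.8 CPM in ++Oxtr. The groups did not overlap, and the log2 fold change was 1.02 (SE 0.22, edgeR adjusted p = 0.347, DESeq2 adjusted p = 0.00282), beside 0.16 for Ldha and 0.39 for Ldhb.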
